A study of Mus musculus with 3 samples.

Results

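The subject is a set of 40 genes of mitosis and the G2/M part of the cell cycle, chosen by name, and all 40 were among the 20586 genes of a single-cell count table of 7598 cells. The cells were CD45-positive cells sorted from mouse thalamus (CD45 is a surface protein of immune cells), and the study asked about the cytokine IL-33 and its receptor ST2 on microglia, the resident macrophages of the brain. WT IL-33 denotes mice labelled Cx3cr1-creER Heterozygous that received IL-33. WT vehicle denotes the same genotype given Vehicle, and cKO IL-33 denotes Cx3cr1-creER Heterozygous:ST2 Flox homozygous mice given IL-33. All injections were into the cerebral ventricle, and cells were collected 4 h later. Every group therefore carried the inducible Cre driven from Cx3cr1, a gene of microglia and of other macrophages and monocytes. The labels give no age, no schedule for inducing Cre and no number of animals behind a library. Each group is 1 library of 10x Genomics 3' single-cell RNA sequencing, so no test between groups was possible, and every interval covers counting error only, not the spread between animals.

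A dividing cell copies its DNA in S phase, prepares in G2, and separates its chromosomes in mitosis. Cyclin-dependent kinase 1 with its A and B cyclins starts mitosis, Aurora and Polo-like kinases build the spindle, and motors and kinetochore proteins attach and move chromosomes. A checkpoint holds back the anaphase promoting complex until attachment is complete, after which cyclins are degraded and the cell divides. Most of these transcripts build up in G2 and are cleared on return to G1, so they mark cells in division. Microglia renew by dividing in place and proliferate during early postnatal brain growth.

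The libraries differed in ways other than treatment. WT vehicle held 2709 cells and 18269042 unique molecular identifiers (UMIs, each a counted transcript), cKO IL-33 held 2687 and 17480958, and WT IL-33 held 2202 and 12127214, with median depths of 5544, 5119 and 3951 UMIs per cell. The deposited sex call was Male for 2701 of the WT vehicle cells and Female for 2648 of the cKO IL-33 cells, while the WT IL-33 library held 1095 Male and 1107 Female cells. Of 315 cells with both Xist and Y-linked UMIs, 305 were in WT IL-33, and the main values are therefore repeated in sex-matched cells and without those cells. Barcodes shared between libraries numbered 2. Il1rl1, which encodes ST2, had 212 UMIs in WT vehicle, 224 in cKO IL-33 and 70 in WT IL-33, or 11.6, 12.8 and 5.77 CPM (counts per 1000000 UMIs of the library). It was thus not lower in the library labelled cKO than in WT vehicle. The labels do not name the deleted exons, and 3' counts need not read them, so this does not check the label.

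Across all cells of a library, the mitotic genes were highest in WT vehicle, intermediate in cKO IL-33 and lowest in WT IL-33. Their UMIs made up 14.3 of every 10000 UMIs in WT vehicle, 8.34 in cKO IL-33 and 3.65 in WT IL-33. Compared with WT vehicle, 37 of the 40 genes had a CPM at least 2-fold lower in WT IL-33 and 0 reached 2-fold higher. In the same comparison 12.7% of 10933 genes with at least 100 UMIs over the libraries were at least 2-fold lower and 11.2% at least 2-fold higher. The median log2 ratio was -2.48 over the 40 genes and 0.02 over all genes, with 1 CPM added to each value. All 40 genes passed the minimum of 100 UMIs, which was set on the sum of the libraries. In such a sum, fewer dividing cells and less RNA per cell cannot be told apart; the cells are counted further on. Kif2c, Tubb4b and Cks2 were the genes that were not 2-fold lower.

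**Figure D1:**
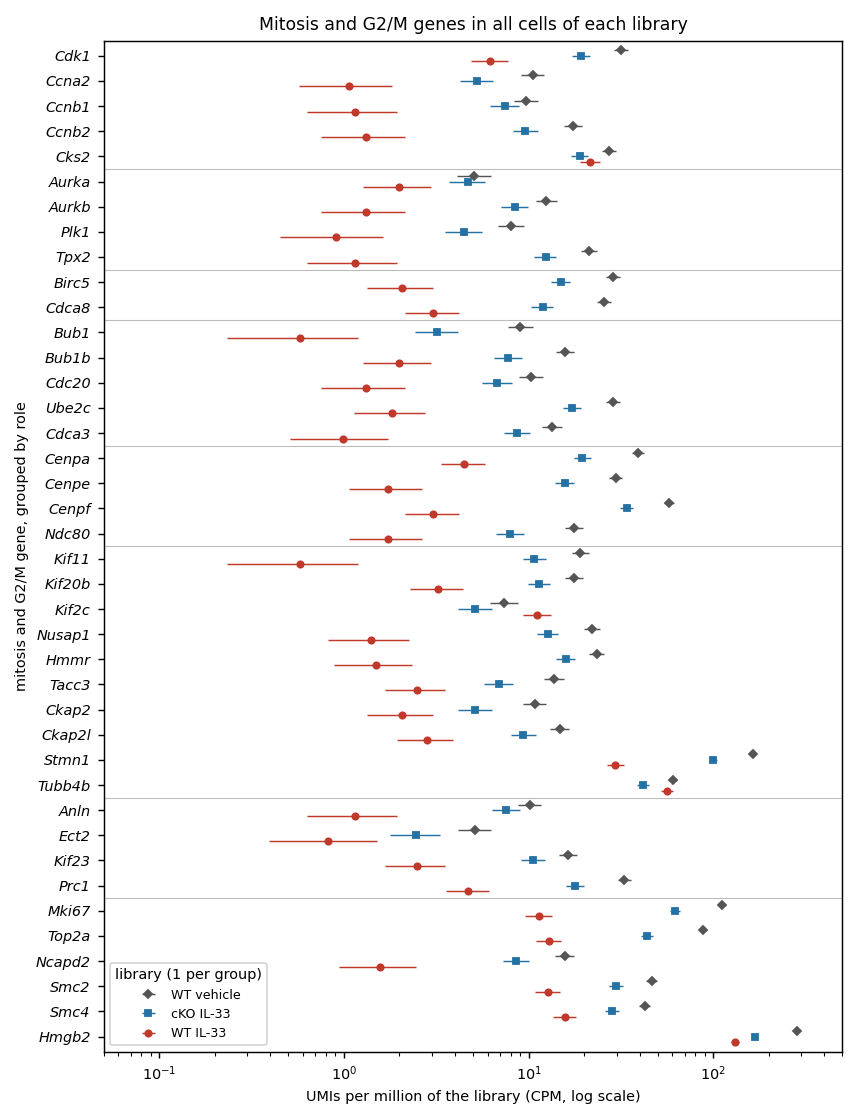
Level of each of the 40 genes over all cells of each library, as CPM (counts per 1000000 UMIs) on a log axis; points are 1 library each, bars are exact Poisson 95% intervals, and horizontal lines separate roles. The WT IL-33 points lie left of both other libraries for all genes but Cks2, Kif2c and Tubb4b.

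Among the kinase and cyclins that start mitosis, Cdk1, the kinase itself, measured 31.7 CPM in WT vehicle, 19.3 in cKO IL-33 and 6.18 in WT IL-33, and was 5.13-fold (95% interval 4.02 to 6.61) lower in WT IL-33 than in WT vehicle. Ccna2, the A-type cyclin that acts in S and G2, measured 10.5, 5.26 and 1.07 CPM in the same order of libraries. Of the B cyclins, which bind Cdk1 at mitotic entry, Ccnb1 measured 9.74, 7.44 and 1.15 CPM, and Ccnb2 measured 17.4, 9.61 and 1.32 CPM, which is 13.2-fold (95% interval 8.0 to 23.4) lower in WT IL-33. In these 4 genes the intervals of WT IL-33 did not meet those of the other libraries. Cks2, a small subunit that binds cyclin-dependent kinases, measured 27.4, 18.9 and 21.4 CPM, so that WT IL-33 lay between the other libraries and its ratio to WT vehicle was 0.783 (95% interval 0.672 to 0.912).

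The mitotic kinases and their activator were all lower in WT IL-33. Plk1, the Polo-like kinase of mitotic entry and spindle assembly, measured 8.05 CPM in WT vehicle, 4.46 in cKO IL-33 and 0.907 in WT IL-33. Aurkb, the kinase of the chromosomal passenger complex, measured 12.5, 8.41 and 1.32 CPM, and Tpx2, which activates Aurora A on spindle microtubules, measured 21.4, 12.4 and 1.15 CPM. Tpx2 was 18.5-fold (95% interval 10.9 to 34.1) lower in WT IL-33 than in WT vehicle. Aurka, Aurora A of the centrosome, had the smallest difference of the 4, with 5.09, 4.69 and 1.98 CPM, and it is the only gene of the 40 whose cKO IL-33 to WT vehicle ratio had an interval that held 1, at 0.922 (95% interval 0.676 to 1.25). The passenger subunits Birc5 (survivin) and Cdca8 (borealin), which bring Aurora B to the centromere, measured 28.5, 14.9 and 2.06 CPM and 25.7, 11.9 and 3.05 CPM. Birc5 was 13.8-fold (95% interval 9.27 to 21.6) lower and Cdca8 8.41-fold (95% interval 6.02 to 12.1) lower in WT IL-33 than in WT vehicle.

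The checkpoint and degradation genes followed the same order of libraries. Bub1, a checkpoint kinase at the kinetochore, measured 9.03 CPM in WT vehicle, 3.20 in cKO IL-33 and 0.577 in WT IL-33, on only 7 UMIs in WT IL-33. Bub1b (BubR1), part of the complex that holds back anaphase, measured 15.8, 7.78 and 1.98 CPM. Cdc20, the activator that this complex restrains, measured 10.4, 6.75 and 1.32 CPM. Ube2c, the ubiquitin-conjugating enzyme of the anaphase promoting complex, measured 28.6, 17.2 and 1.81 CPM, which is 15.8-fold (95% interval 10.3 to 25.4) lower in WT IL-33. Cdca3, a protein linked to degradation at mitotic entry, measured 13.4, 8.70 and 0.990 CPM. Each of the 5 was at least 7.84-fold lower in WT IL-33 than in WT vehicle, the lowest fold being that of Cdc20.

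The centromere and kinetochore genes had some of the widest gaps. Cenpf, a large kinetochore and nuclear matrix protein that builds up in G2, measured 57.8 CPM in WT vehicle, 34.0 in cKO IL-33 and 3.05 in WT IL-33, 18.9-fold (95% interval 13.6 to 27.0) lower in WT IL-33 than in WT vehicle. Cenpe, the kinetochore motor that lines up chromosomes, measured 29.6, 15.7 and 1.73 CPM and was 17.1-fold (95% interval 11.1 to 27.9) lower. Cenpa, the histone H3 variant that marks centromeres, measured 39.2, 19.6 and 4.45 CPM, and Ndc80, the main microtubule anchor of the kinetochore, 17.7, 7.95 and 1.73 CPM. Cenpa was 8.80-fold (95% interval 6.67 to 11.8) lower and Ndc80 10.2-fold (95% interval 6.57 to 16.7) lower in WT IL-33.

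The 10 spindle genes held both the widest difference and, with Kif2c and Tubb4b, 2 of the 3 exceptions. Kif11 (Eg5), the motor that pushes spindle poles apart, measured 19.1 CPM in WT vehicle, 10.8 in cKO IL-33 and 0.577 in WT IL-33. With 7 UMIs in WT IL-33 against 349 in WT vehicle it was 33.1-fold (95% interval 15.9 to 82.9) lower, the largest fold among the 40 genes. Nusap1 and Hmmr, which bind spindle microtubules, measured 22.0, 12.7 and 1.40 CPM and 23.4, 15.9 and 1.48 CPM. Kif20b, a motor of late mitosis, measured 17.6, 11.4 and 3.22 CPM. Tacc3, Ckap2 and Ckap2l, proteins of spindle microtubules, were 5.55-, 5.26- and 5.27-fold lower in WT IL-33 than in WT vehicle, with WT IL-33 levels of 2.47, 2.06 and 2.80 CPM. Stmn1 (stathmin), which destabilises microtubules and is also known from neurons, measured 164, 99.5 and 29.5 CPM and was 5.57-fold (95% interval 4.99 to 6.23) lower. Tubb4b, a beta tubulin made in many cells, measured 60.2, 41.7 and 56.5 CPM, and its WT IL-33 to WT vehicle ratio of 0.938 (95% interval 0.852 to 1.03) had an interval that held 1. Kif2c (MCAK), which takes microtubule ends apart at the centromere, was higher in WT IL-33, with 7.39, 5.15 and 11.1 CPM and a WT IL-33 to WT vehicle ratio of 1.51 (95% interval 1.18 to 1.93).

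The 4 cytokinesis genes were all lower in WT IL-33. Prc1, which bundles the central spindle, measured 33.0 CPM in WT vehicle, 17.9 in cKO IL-33 and 4.70 in WT IL-33, 7.01-fold (95% interval 5.34 to 9.37) lower in WT IL-33 than in WT vehicle. Kif23, the motor of the central spindle, measured 16.4, 10.6 and 2.47 CPM. Anln (anillin), a scaffold of the contractile ring, measured 10.1, 7.55 and 1.15 CPM, and Ect2, the exchange factor that starts ring contraction, 5.15, 2.46 and 0.825 CPM. Among genes of chromosome structure, Mki67, the source of the Ki-67 proliferation antigen, measured 112, 61.8 and 11.4 CPM, 9.82-fold (95% interval 8.26 to 11.8) lower in WT IL-33. Top2a, the topoisomerase that untangles sister chromosomes, measured 88.4, 43.7 and 12.9 CPM, 6.87-fold (95% interval 5.82 to 8.15) lower. The condensin subunits Ncapd2, Smc2 and Smc4 were 10.0-, 3.66- and 2.71-fold lower, with 15.7, 8.58 and 1.57 CPM for Ncapd2. Hmgb2, a DNA-bending protein, measured 285, 167 and 131 CPM and was 2.18-fold (95% interval 2.06 to 2.31) lower, the smallest fold among the 37 genes past 2-fold.

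In cKO IL-33 most of these genes lay above their WT IL-33 level. Of the 40 genes, 35 were at least 2-fold above their WT IL-33 level in cKO IL-33 and 1, Kif2c, at least 2-fold lower, where 13.8% and 9.13% of all 10933 genes were. The median log2 ratio was 1.72, against 0.05 over all genes. Kif11 had the highest ratio, 18.6 (95% interval 8.87 to 47.0), followed by Cenpf with 11.2 (95% interval 8.0 to 16.0). Of the other genes, Hmgb2 and Smc4 were higher by less than 2-fold, at ratios of 1.28 and 1.80. Cks2 and Tubb4b had ratios of 0.881 and 0.738, and Kif2c one of 0.463 (95% interval 0.350 to 0.608).

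Levels in cKO IL-33 nevertheless lay under those in WT vehicle for all 40 genes, with an interval below 1 for 39 of them. After thinning every cell to 3000 UMIs, Aurka and Ccnb1 were higher in cKO IL-33, by 0.17 and 0.04 on the log2 scale. The median log2 ratio was -0.74 against 0.06 over all genes. At least 2-fold lower were 8 of 40 (Cdca8, Bub1, Bub1b, Cenpa, Ndc80, Ckap2, Ect2 and Top2a) and 0 were 2-fold higher, beside 0.924% and 1.01% of all genes. Bub1 had the lowest ratio, 0.355 (95% interval 0.257 to 0.483). For 37 genes the cKO IL-33 level lay between those of the other libraries, and for 34 of these the 3 Poisson intervals did not meet. The cKO IL-33 cells were nearly all Female calls and the WT vehicle cells nearly all Male, so that in this comparison sex and group cannot be told apart. The comparisons share libraries and are not independent of each other.

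In Male-called cells 35 of the 40 genes were at least 2-fold lower in WT IL-33 than in WT vehicle, beside 16.9% of all genes. In Female-called cells without Y-linked UMIs 33 were at least 2-fold higher in cKO IL-33 than in WT IL-33, beside 11.7%. Leaving out cells with UMIs of both Xist and Y-linked genes, the counts were 37 and 35, beside 13.5% and 14.5%.

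Cells that held many of these genes at once were few, and their part in the summed UMIs differed between libraries. At least 1 of the genes had a UMI in 77.9% of WT vehicle, 72.8% of cKO IL-33 and 67.8% of WT IL-33 cells. Most cells held UMIs of 0 to 4 of the 40 genes, 182 cells held 5 to 9, and 247 cells held 10 or more, with a median of 30. Cells with 10 or more numbered 156 of 2709 in WT vehicle (5.76%, exact binomial 95% interval 4.91 to 6.70), 79 of 2687 in cKO IL-33 (2.94%, 2.33 to 3.65) and 12 of 2202 in WT IL-33 (0.545%, 0.282 to 0.95). The 3 intervals did not meet. These cells gave 20137 of the 26074 UMIs of the genes in WT vehicle and 9803 of 14586 in cKO IL-33, but 918 of 4422 in WT IL-33. In WT IL-33, cells with 10 or more genes were 6 of 1095 Male-called cells (0.548%) and 6 of 1107 Female-called cells (0.542%). After thinning every cell to 3000 UMIs and leaving out 77, 86 and 353 shallower cells of WT vehicle, cKO IL-33 and WT IL-33, the shares were 4.86%, 2.58% and 0.595%. Of the cells with 10 or more genes, 1, 2 and 0 were among those left out.

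**Figure D2:**
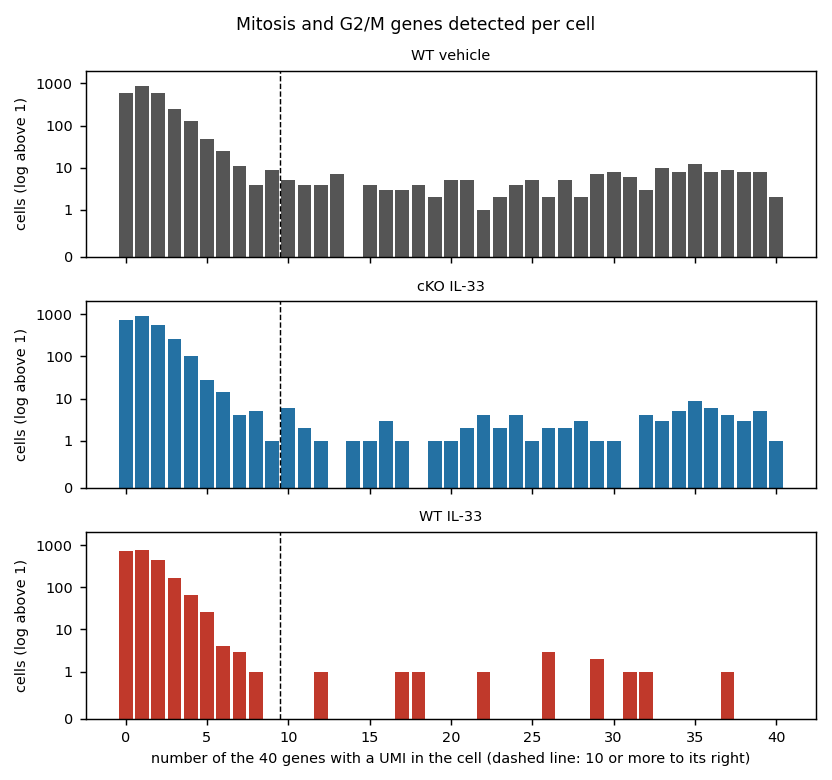
Number of cells (vertical, log above 1) by the number of the 40 genes with at least 1 UMI (horizontal), for each library; the dashed line marks 10 genes. A low group of 0 to 9 genes is present in every library, and the cells to the right number 156 in WT vehicle, 79 in cKO IL-33 and 12 in WT IL-33.

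The 12 WT IL-33 cells differed in how many of the genes they held. The highest held 37 of the 40 genes in 11816 UMIs, 8 held 26 or more, and the lowest held 12 genes in 3157 UMIs. Of these cells 11 were in deposited cluster 4 and 1 in cluster 1, 11 were called G2M and 1 S. The cell in cluster 1 held 18 of the genes in 16412 UMIs and both Xist and Y-linked UMIs. Over the 3 libraries 236 of the 247 cells with 10 or more genes were in cluster 4, and 213 were called G2M, 34 S and 0 G1. The deposited clusters and Phase calls were made from these cells' own transcripts, so the match between them and the genes, and levels within cluster 4, are descriptions. Of the 40 genes, 33 are in the G2M scoring list commonly distributed with Seurat; the labels do not say whether that list made the Phase call.

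Within cluster 4, with cells of all phases together, the median ratio of the 40 genes between WT IL-33 and WT vehicle cells was close to 1. The cluster held 247 cells of WT vehicle (9.12% of the library), 122 of cKO IL-33 (4.54%) and 15 of WT IL-33 (0.681%). The median log2 ratio of the 40 genes between WT IL-33 and WT vehicle within the cluster was -0.01, compared with -2.48 over all cells. At least 2-fold lower was 1 gene (Kif11) and at least 2-fold higher was 1 (Aurka), where 15.9% and 9.11% of 5169 genes were. For 35 of the 40 genes the interval of the ratio held 1. The intervals rest on summed UMIs, are wide where the 15 cells gave few, and leave out the spread between cells. In WT IL-33, 1 of these cells gave 177 of the 874 UMIs of the 40 genes in the cluster. Mki67 measured 917 CPM in WT vehicle, 1106 in cKO IL-33 and 775 in WT IL-33, a WT IL-33 to WT vehicle ratio of 0.845 (95% interval 0.658 to 1.07). Top2a measured 714, 774 and 1033 CPM, a ratio of 1.45 (95% interval 1.17 to 1.78), and Cdk1 187, 198 and 323 CPM, a ratio of 1.72 (95% interval 1.15 to 2.50). Stmn1 was lower, with a ratio of 0.765 (95% interval 0.595 to 0.969). Kif11 rested on 3 UMIs in the WT IL-33 cells, with a ratio of 0.204 (95% interval 0.0419 to 0.601).

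Between cKO IL-33 and WT vehicle within the cluster, 0 of the 40 genes were at least 2-fold lower and 0 higher, beside 0.174% and 0.232% of the 5169 genes. The ratio was above 1 for 28 genes, with an interval above 1 for 17, and the median log2 ratio was 0.20. Aurka had the highest, 1.91 (95% interval 1.36 to 2.68), followed by Ccnb1 with 1.53 (95% interval 1.20 to 1.96) and Hmmr with 1.51 (95% interval 1.29 to 1.76). The mix of phases in the cluster differed between libraries, with G2M calls in 136 of 247 cells in WT vehicle (55.1%), 76 of 122 in cKO IL-33 (62.3%) and 11 of 15 in WT IL-33 (73.3%). S calls made up 36.0%, 26.2% and 13.3%. The interval of the WT IL-33 share of S calls ran from 1.66% to 40.5%, which includes the shares of both other libraries. In the G2M-called cells of the cluster alone, the 40 genes gave 145 of every 10000 UMIs in WT vehicle, 150 in cKO IL-33 and 109 in WT IL-33. Mki67 there measured 1401 CPM (95% interval 1337 to 1468) in WT vehicle and 948 (739 to 1198) in WT IL-33. Top2a went the other way, with 1098 and 1178 CPM and intervals that met. A median ratio near 1 with phases together thus does not hold for G2M-called cells alone. The part of the mix in the ratios was not tested further. Of 27 DNA replication genes that could be compared within the cluster, 12 were at least 2-fold lower and 0 higher in WT IL-33 than in WT vehicle. For all genes there the shares were 15.9% and 9.11%. The median log2 ratio of the 27 was -0.95, though the interval held 1 for 22 of them. The same minimum was used, to which WT IL-33 added few UMIs, so these counts are a description.

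**Figure D3:**
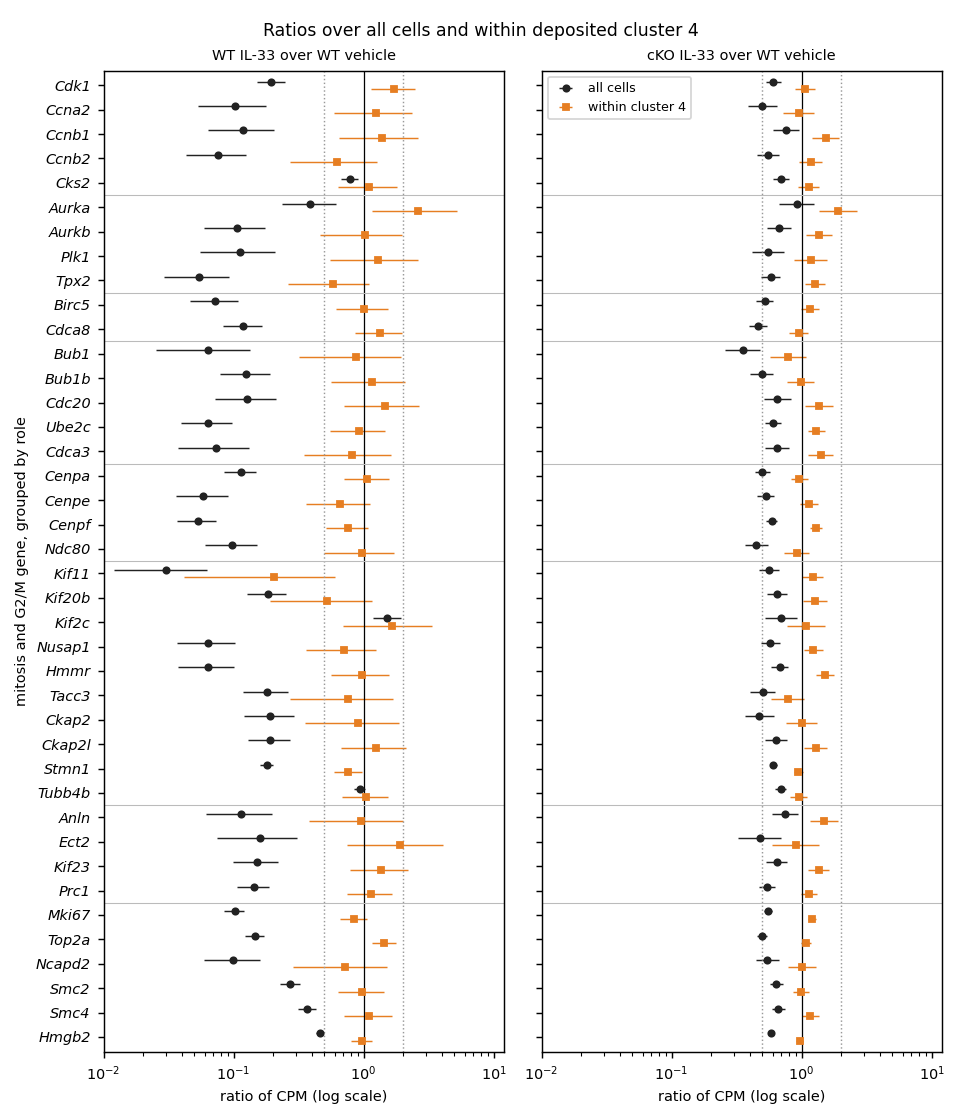
Ratio of CPM (log axis) for each gene, WT IL-33 over WT vehicle at left and cKO IL-33 over WT vehicle at right; circles are all cells, squares are cells of deposited cluster 4, bars are exact 95% intervals, the solid line is a ratio of 1 and dotted lines are 2-fold. At left the circles lie below 0.5 for 37 genes while the squares scatter around 1, with a median log2 ratio of -0.01.

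By deposited Phase, the level of each gene over the 3 libraries together was highest in the G2M cells of cluster 4. These 223 cells held a median of 31 of the 40 genes, and 90.6% held 10 or more. The 123 S cells of the cluster held a median of 5, and 27.6% held 10 or more. Outside the cluster 751 cells were also called G2M, but they held a median of 2 of the genes and 11 of them (1.47%) held 10 or more. The G2M call outside cluster 4 took 12.2% of the WT IL-33 library, 8.19% of cKO IL-33 and 9.67% of WT vehicle, and so did not follow the order of the cells with 10 or more genes.

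The genes differed in how far G2M and S cells of cluster 4 stood apart, a description since the Phase call reads such genes. Cenpa had 446 CPM in G2M and 12.1 in S cells, a ratio of 36.9. Ube2c, Cenpf and Ccnb2 followed with ratios of 29.4, 25.6 and 24.7, and all 3 are genes of late G2 and mitosis. At the low end, Stmn1 had a ratio of 2.22, Smc2 2.70, Hmgb2 3.11 and Cdk1 3.75, and S cells of the cluster held 573 CPM of Stmn1 and 582 CPM of Hmgb2. The 7 genes that are not in the scoring list (Ccna2, Ccnb1, Plk1, Bub1b, Stmn1, Prc1 and Smc2) had ratios of 9.37, 14.2, 12.1, 7.37, 2.22, 10.1 and 2.70. Stmn1 and Smc2 among them had the lowest ratios of all 40 genes, and the other 5 lay within the range of the listed genes. All 7 were at least 2-fold lower in WT IL-33 than in WT vehicle over all cells, with a median log2 ratio of -2.44, beside 30 of the 33 listed genes with a median of -2.67.

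**Figure D4:**
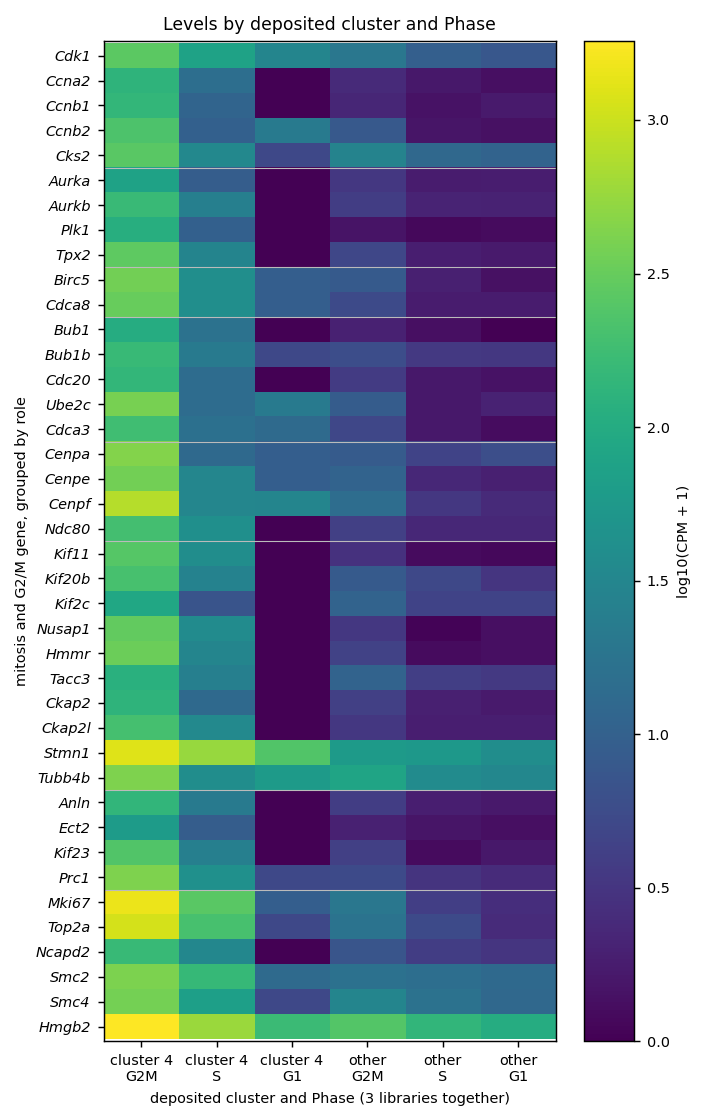
Level of each gene as log10(CPM + 1) (color) in cells grouped by deposited cluster 4 or not and by Phase, the 3 libraries together, with horizontal lines between roles. The first column, G2M cells of cluster 4, is brightest for every gene, and Hmgb2 and Stmn1 are the brightest in the second column, S cells of cluster 4.

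The promoters of the 6 genes that stood furthest above G1 cells in G2M cells are shown because these genes had the highest ratio of UMIs in G2M-called to G1-called cells. Kif11 had 498 UMIs in G2M-called and 5 in G1-called cells of all clusters, Bub1 208 and 0, Hmmr 680 and 11, Nusap1 594 and 10, Mki67 2910 and 50, and Birc5 742 and 14. Promoters of mitotic genes are known for CCAAT boxes, read by the factor NF-Y, and for the cell cycle homology region, read by the DREAM and MuvB complexes. The windows run from 250 bases before to 30 bases after the RefSeq start site in GRCm38.p6, at chr19:37376132-37376411 (plus strand), chr2:127831830-127832109 (minus strand), chr11:40733408-40733687 (minus strand), chr2:119618048-119618327 (plus strand), chr7:135716350-135716629 (minus strand) and chr11:117848987-117849266 (plus strand). Tubb4b at chr2:25224673-25224952 (minus strand) was added after its values were seen, as a gene that was not 2-fold lower in WT IL-33. Capitals mark CCAAT, and TTTGAA or TTCGAA (forms of the homology region), on either strand, so that a match on the other strand reads ATTGG or TTCAAA.
Kif11: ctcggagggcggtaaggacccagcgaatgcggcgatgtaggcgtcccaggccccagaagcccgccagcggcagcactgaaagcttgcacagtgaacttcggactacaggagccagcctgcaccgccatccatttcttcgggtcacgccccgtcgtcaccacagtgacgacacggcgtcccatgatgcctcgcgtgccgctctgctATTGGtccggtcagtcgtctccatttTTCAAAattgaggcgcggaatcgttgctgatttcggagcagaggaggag
Bub1: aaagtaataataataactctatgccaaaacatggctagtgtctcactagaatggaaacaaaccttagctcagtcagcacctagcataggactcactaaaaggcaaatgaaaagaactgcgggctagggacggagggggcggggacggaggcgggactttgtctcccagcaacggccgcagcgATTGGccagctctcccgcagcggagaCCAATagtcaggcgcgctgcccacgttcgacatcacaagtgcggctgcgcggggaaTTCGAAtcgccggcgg
Hmmr: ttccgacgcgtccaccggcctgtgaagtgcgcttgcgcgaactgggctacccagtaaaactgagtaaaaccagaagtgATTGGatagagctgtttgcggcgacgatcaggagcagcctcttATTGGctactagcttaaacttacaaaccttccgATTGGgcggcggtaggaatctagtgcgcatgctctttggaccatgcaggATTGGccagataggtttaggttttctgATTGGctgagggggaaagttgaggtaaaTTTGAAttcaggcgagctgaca
Nusap1: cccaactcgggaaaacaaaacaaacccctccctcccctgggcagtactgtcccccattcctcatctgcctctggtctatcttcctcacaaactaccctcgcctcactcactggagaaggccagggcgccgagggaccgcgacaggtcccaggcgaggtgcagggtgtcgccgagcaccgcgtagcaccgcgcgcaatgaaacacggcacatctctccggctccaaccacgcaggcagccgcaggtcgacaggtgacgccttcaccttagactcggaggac
Mki67: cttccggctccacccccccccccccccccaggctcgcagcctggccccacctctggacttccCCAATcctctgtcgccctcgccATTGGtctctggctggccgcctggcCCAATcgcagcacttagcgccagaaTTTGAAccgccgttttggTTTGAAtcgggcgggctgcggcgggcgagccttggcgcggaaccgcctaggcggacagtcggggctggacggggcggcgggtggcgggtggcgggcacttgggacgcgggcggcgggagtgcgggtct
Birc5: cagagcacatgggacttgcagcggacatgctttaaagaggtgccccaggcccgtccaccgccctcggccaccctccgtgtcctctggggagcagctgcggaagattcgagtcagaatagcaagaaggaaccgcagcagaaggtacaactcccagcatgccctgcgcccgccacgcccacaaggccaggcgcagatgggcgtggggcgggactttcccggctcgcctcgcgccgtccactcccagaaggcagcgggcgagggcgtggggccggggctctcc
Tubb4b: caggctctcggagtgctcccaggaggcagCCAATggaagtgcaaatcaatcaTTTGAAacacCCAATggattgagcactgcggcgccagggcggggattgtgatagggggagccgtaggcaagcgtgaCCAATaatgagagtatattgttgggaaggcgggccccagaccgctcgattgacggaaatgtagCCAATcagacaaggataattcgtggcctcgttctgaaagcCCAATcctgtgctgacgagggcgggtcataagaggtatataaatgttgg

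Of the 40 genes, 35 had a promoter in the RefSeq table (not Tpx2, Stmn1, Aurkb, Smc4 and Ccna2). CCAAT was present in the window of 28 of the 35 genes (80%), beside 39.7% of all 27025 genes of the table, and 20 of the 35 held at least 2 copies (57.1%, beside 12.6%). TTTGAA or TTCGAA was present in 25 (71.4%, beside 20.9%), and both kinds of motif in 22 (62.9%, beside 8.97%). Where a gene had more than 1 promoter (32851 promoters in all), a match in any window counted, so both kinds can come from different windows. Kif2c, whose RefSeq start site lies inside the gene, is among the 25. Hmmr held 5 CCAAT matches and a TTTGAA, and Mki67 held 3 CCAAT and 2 TTTGAA. Nusap1 and Birc5 held no match in these letters and this window. Tubb4b also held 5 CCAAT matches and a TTTGAA. A match is a description of the sequence and not a site of binding.

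Outside cluster 4 the genes differed in direction. Of the 40, 16 still had at least 100 UMIs there, a minimum set on the sum of the libraries. Kif2c passed it only through WT IL-33, with 22, 36 and 127 UMIs in WT vehicle, cKO IL-33 and WT IL-33. Mki67 (60, 33 and 66 UMIs) would not have passed if WT IL-33, or WT vehicle, had been left out. Cenpf (79, 41 and 5 UMIs), Bub1b (66, 40 and 13), Ncapd2 (61, 50 and 12) and Tacc3 (66, 57 and 24) would not have passed without WT vehicle. The same holds for Top2a (72, 30 and 60) and Kif20b (55, 51 and 33). Cenpf, Bub1b, Ncapd2, Tacc3 and Kif20b would also not have passed without cKO IL-33. The counts that follow are therefore a description. Between WT IL-33 and WT vehicle 7 of these were at least 2-fold lower and 2 at least 2-fold higher, beside 11.4% and 11.9% of 10715 genes. Lower were Cdk1 (10.8, 9.01 and 3.74 CPM in WT vehicle, cKO IL-33 and WT IL-33), Stmn1 (52.5, 51.1 and 23.9 CPM), Cenpf (4.90, 2.48 and 0.416 CPM), Cenpa (6.71, 5.20 and 2.16 CPM), Bub1b (4.10, 2.42 and 1.08 CPM), Ncapd2 (3.79, 3.02 and 0.997 CPM) and Tacc3 (4.10, 3.45 and 1.99 CPM). Stmn1, the most widely detected of these, had UMIs in 554 of 2462 cells in WT vehicle, 607 of 2565 in cKO IL-33 and 244 of 2187 in WT IL-33. Between cKO IL-33 and WT vehicle 1 of 16 was at least 2-fold lower, Top2a, and 0 higher, beside 0.411% and 1.02%. Top2a reached the minimum only with WT vehicle, the library where it was higher. Between cKO IL-33 and WT IL-33, 6 were at least 2-fold higher and 4 lower, beside 12.6% and 9.51%.

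Of the 16 genes, Kif2c, Cks2, Tubb4b and Mki67 had an interval above 1 outside cluster 4 between WT IL-33 and WT vehicle. Kif2c and Mki67 among them would not have reached the minimum without WT IL-33. Kif2c measured 1.37 CPM in WT vehicle, 2.18 in cKO IL-33 and 10.6 in WT IL-33, and was found in 22 of 2462 cells in WT vehicle, 34 of 2565 in cKO IL-33 and 120 of 2187 in WT IL-33. Its WT IL-33 to WT vehicle ratio there was 7.73 (95% interval 4.89 to 12.8), and it was 7.87 in Male-called cells, 8.82 after thinning and 7.73 without the cells holding both Xist and Y-linked UMIs. In the WT IL-33 clusters other than 4 the Kif2c intervals overlapped, with 10.3 CPM in cluster 1, which holds 1815 of the cells, 15.5 in cluster 0, 9.16 in cluster 2, 7.33 in cluster 3 and 14.6 in cluster 5. Cells with a Kif2c UMI in WT IL-33 held a median of 1 other gene of the 40, the same as cells without, 70 of the 120 were called G1, and 1 held a Mki67 UMI. These cells were deeper, at a median of 6529.5 UMIs against 3896, and 31 of them held both Xist and Y-linked UMIs.

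Cks2 measured 8.82 CPM in WT vehicle, 9.19 in cKO IL-33 and 20.2 in WT IL-33 outside the cluster, a WT IL-33 to WT vehicle ratio of 2.29 (95% interval 1.86 to 2.84), with UMIs in 123 of 2462 cells in WT vehicle, 142 of 2565 in cKO IL-33 and 213 of 2187 in WT IL-33. Tubb4b measured 31.2, 28.9 and 54.7 CPM, a ratio of 1.76 (95% interval 1.56 to 1.98). Within cluster 4 the ratios of these genes were 1.65 (95% interval 0.694 to 3.36) for Kif2c, 1.10 (95% interval 0.636 to 1.79) for Cks2 and 1.05 (95% interval 0.686 to 1.54) for Tubb4b, each with an interval that held 1. In WT vehicle 83.7% of the Kif2c UMIs lay in cluster 4, in cKO IL-33 60% and in WT IL-33 5.93%. For the summed 40 genes these shares were 78.9%, 68.6% and 19.8%, and 90.9%, 86.0% and 46.2% without Hmgb2, Stmn1, Tubb4b, Cks2, Smc4 and Ckap2. Of these 6, Ckap2 was not widely detected, with UMIs in 0.648% of cells without Mki67. Smc2 and Cdk1, found in 6.52% and 4.88% of such cells, were kept in. Cks2 overlaps Gm22806 on the same strand and Tubb4b overlaps Fam166a on the other strand, while Kif2c overlaps no other annotated gene. Among genes under the minimum, Ckap2l had 9, 17 and 20 UMIs in WT vehicle, cKO IL-33 and WT IL-33, a WT IL-33 to WT vehicle ratio of 2.98 (95% interval 1.30 to 7.42). The RefSeq start site used for Kif2c lies inside the gene as GENCODE M21 gives it, so its promoter is not shown.

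Mki67 and Top2a UMIs were also found in cells outside cluster 4. Mki67 measured 3.73 CPM in WT vehicle, 2.0 in cKO IL-33 and 5.48 in WT IL-33, a WT IL-33 to WT vehicle ratio of 1.47 (95% interval 1.02 to 2.13). It was in 31 of 2462 cells in WT vehicle, 23 of 2565 in cKO IL-33 and 43 of 2187 in WT IL-33, and Top2a in 41 of 2462 cells in WT vehicle, 20 of 2565 in cKO IL-33 and 46 of 2187 in WT IL-33. Of the 43 WT IL-33 cells with Mki67 only 3 also held Top2a, 2 held 5 or more other genes of the 40, and 18 (41.9%) held both Xist and Y-linked UMIs, compared with 13.3% of the WT IL-33 cells without Mki67. Their median depth was 7924 UMIs against 3928. The Mki67 ratio outside cluster 4 was not recomputed without the cells holding both Xist and Y-linked UMIs. Nearly every cell here carried microglial markers, so no cell type that should lack these genes was at hand to measure free RNA, and its part in such single UMIs was not tested. In all, 348 cells held a Mki67 UMI and 251 held 2 or more.

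**Figure D5:**
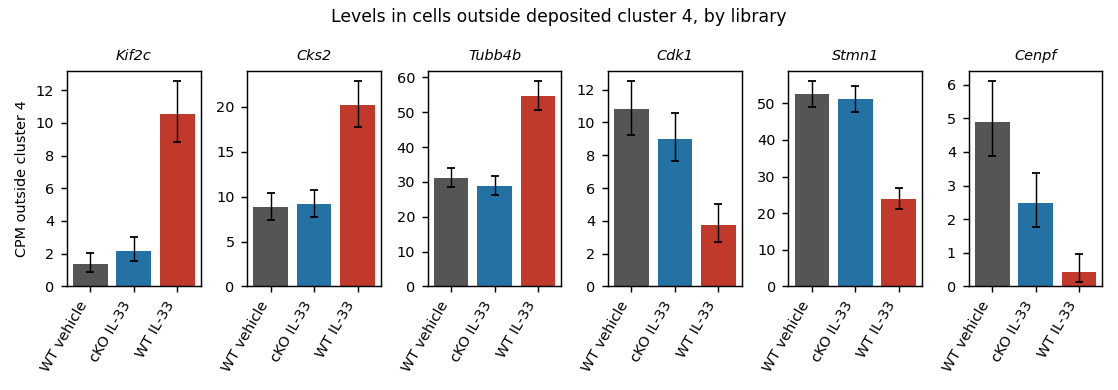
CPM of 6 genes in cells outside deposited cluster 4, bars are 1 library each with exact Poisson 95% intervals and each panel has its own axis from 0. Kif2c, Cks2 and Tubb4b are highest in WT IL-33, at 10.6, 20.2 and 54.7 CPM, while Cdk1, Stmn1 and Cenpf are lowest there.

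The genes were detected together in cells. Among the 348 cells with a Mki67 UMI, 63.2% also held Top2a, against 1.60% of cells without Mki67, and the shares were 61.2% and 0.469% for Birc5 and 35.9% and 0.138% for Plk1. Hmgb2, Stmn1 and Tubb4b were the least restricted, found in 44.7%, 20.2% and 18.4% of cells without Mki67. Over 38 groups of cells (library by cluster by Phase, at least 20 cells each), the genes whose log2 level was closest to the summed 40 were Pbk, a mitotic kinase (Pearson r = 0.926), Melk (0.920), Ttk (0.920), Cdca2 (0.919), Aspm (0.919), Cep55 (0.918), H2afz (0.918), Esco2 (0.908), Stil (0.908) and Hist1h3c (0.906). Among the 40 themselves, Nusap1 was closest to the sum it belongs to (0.943) and Kif2c furthest (0.505). These groups share libraries and depth, and r describes them without a test. Over all cells, Esco2, which joins sister chromosomes in S phase, measured 19.8, 7.84 and 0.495 CPM in WT vehicle, cKO IL-33 and WT IL-33, and Aspm, a spindle pole protein, 15.3, 8.92 and 0.495 CPM.

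Most other genes of division followed the same direction over all cells. Of 50 further mitotic genes with at least 100 UMIs, 42 were at least 2-fold lower and 0 higher in WT IL-33 than in WT vehicle, with a median log2 ratio of -2.06, beside 12.7% and 11.2% of all genes. In cKO IL-33, 38 were at least 2-fold higher and 0 lower than in WT IL-33, beside 13.8% and 9.13%. Those with the most UMIs did not share a direction. Bub3, a checkpoint protein, measured 89.1 CPM in WT vehicle, 87.5 in cKO IL-33 and 119 in WT IL-33, and Hjurp, the chaperone of Cenpa, 86.7, 78.0 and 121 CPM, both higher in WT IL-33. Anp32e, a histone chaperone, measured 113, 82.4 and 83.9 CPM, and Tmpo, a nuclear lamina protein, 101, 84.0 and 55.3 CPM. Of 31 DNA replication genes, 22 were at least 2-fold lower and 0 higher in WT IL-33 than in WT vehicle, with a median of -1.48, beside the same 12.7% and 11.2%. Compared with WT IL-33, 13 of the 31 were at least 2-fold higher and 1 lower in cKO IL-33, beside 13.8% and 9.13%. The median log2 ratio there was 0.64, and 7 genes had a ratio below 1, 5 of them with an interval below 1. Mcm3, a helicase subunit, measured 61.3, 40.2 and 22.5 CPM, Pcna, the replication clamp, 66.8, 45.1 and 56.2 CPM, Nasp, a histone chaperone, 43.9, 34.8 and 48.0 CPM, and Slbp, the histone mRNA binding protein, 57.1, 66.4 and 74.5 CPM. Between cKO IL-33 and WT vehicle, 14 of the 31 replication genes and 11 of the 50 mitotic genes were at least 2-fold lower and 0 of either were higher, beside 0.924% and 1.01% of all genes.

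Genes that set entry into or exit from the cycle did not share a direction. Of 27, 9 were at least 2-fold lower and 7 higher in WT IL-33 than in WT vehicle, beside 12.7% and 11.2% of all genes. Btg1 and Btg2, which restrain growth, measured 254 CPM in WT vehicle, 266 in cKO IL-33 and 557 in WT IL-33 and 145, 177 and 377 CPM. Cdk6, a kinase of G1, measured 169, 203 and 411 CPM, so that all 3 reached 2-fold above WT vehicle in WT IL-33. Ccnd1, the D-type cyclin of G1, measured 183, 174 and 98.6 CPM, a WT IL-33 to WT vehicle ratio of 0.540 (95% interval 0.505 to 0.577). The 15 subunits of the anaphase promoting complex, which are made throughout the cycle, had 0 genes at least 2-fold apart in either direction over all cells in any comparison. Within cluster 4, 11 of them could be compared, and 2 were at least 2-fold lower and 0 higher in WT IL-33 than in WT vehicle, beside 15.9% and 9.11% of all genes there. WT IL-33 added few UMIs to the minimum in that cluster, so these counts are a description. Over all cells Anapc16 measured 122, 181 and 129 CPM, Anapc13 84.5, 89.3 and 60.9 CPM, Cdc26 64.8, 68.1 and 83.0 CPM and Anapc11 69.4, 70.3 and 56.8 CPM.

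The cells with 10 or more of the genes carried microglial markers. Csf1r, the receptor microglia need to survive, had UMIs in 156 of 156 in WT vehicle, 79 of 79 in cKO IL-33 and 12 of 12 in WT IL-33. Tmem119, a surface protein of microglia, had UMIs in 156 of 156 in WT vehicle, 78 of 79 in cKO IL-33 and 11 of 12 in WT IL-33. T and NK cell markers (6 of 6) and neutrophil markers (4 of 4 in the table) were at 0 UMIs in these 247 cells. In all other cells they summed to only 0.637 and 0.110 CPM, so their absence from so few cells says little. Monocyte markers summed to 83.1 CPM in them and 34.7 CPM in all other cells, and border macrophage markers to 56.5 and 68.3 CPM. The monocyte markers Ly6c2 and Chil3 were at 0 in all other cells as well, so their absence does not set the 247 cells apart. Plac8 made up most of the monocyte sum (81.4 against 30.5 CPM), while Ccr2 (1.27 against 2.07) and Vcan (0.422 against 2.22) were lower in the 247 cells. Mrc1 made up most of the border macrophage sum (54.0 against 39.6 CPM), and the other listed border macrophage genes were lower. A list of 5 neuron or neural progenitor genes summed to 102.5 CPM against 19.6, with Snap25 and Rbfox3 at 0. Its sum was 118 against 29.0 CPM in WT vehicle, 70.0 against 16.8 in cKO IL-33 and 75.9 against 10.6 in WT IL-33, and its part in the results was not tested. Nes (nestin, a filament protein known from neural progenitors) gave 187 UMIs in WT vehicle, 47 in cKO IL-33 and 7 in WT IL-33 of that sum in these cells, and the other listed genes at most 1. The WT IL-33 cells among them also held the response genes of that library, which were chosen with earlier results of these data known. Nfkbiz, a regulator of NF-kB target genes, was found in 12 of the 12 cells (1052 CPM, and 896 in the other WT IL-33 cells), against 7 of 79 in cKO IL-33 and 23 of 156 in WT vehicle. The chemokine Ccl4 was found in 11 of the 12, at 2636 CPM against 5129 in the other WT IL-33 cells, and the cytokine gene Tnf in 10, at 347 against 401 CPM. The cytokine genes Il1b and Il12b were found in 7 and 4 of the 12, at 369 against 1197 CPM and 770 against 1247 CPM. P2ry12, a receptor of resting microglia, measured 2669 CPM in the WT vehicle cells with 10 or more genes, 2374 in those of cKO IL-33 and 759 in those of WT IL-33.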

How the data were processed

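CD45-positive thalamus cells of 3 libraries, 1 per group, were measured. The authors deposited UMI counts per gene and cell with a table of library, sex call, cluster, Phase, G2M score and percent of mitochondrial UMIs for each cell; every deposited cell total equals the sum of its counts. Cell Ranger 5.0, Seurat 4.0.1 and builds GRCm38 and mm10 are named per the submitters' processing notes. Per the file headers, the clusters come from a graph on SCT values. Cell filters, doublet removal and the genes behind Phase and the deposited score are not stated in the sources used here. The deposited cells held 2100 to 19987 UMIs and mitochondrial shares up to 5.00 percent. No doublet caller was run; cells with both Xist and any of 4 Y-linked genes were left out in an alternative.

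Counts were summed per library and group of cells and divided by the total UMIs of those cells (CPM). Intervals at 95% are exact Poisson (levels), exact conditional binomial (ratios) and exact binomial (shares), and cover counting error only. Genes with at least 100 UMIs over the 3 libraries were compared; log2 ratios used a pseudocount of 1 CPM, and 2-fold compares CPM without it. With 1 library per group no p-value was computed. Thinning drew 3000 UMIs per cell with a fixed seed. The calculation was checked on simulated counts. Named genes were all 40 genes, the 4 with the most UMIs of each other list, the 10 most alike by Pearson correlation, and for promoters the 6 genes with the highest G2M to G1 ratio; others named were chosen after their values were seen. The genes and lists were chosen with earlier results of these data known. Gene positions came from GENCODE M21 and promoters from RefSeq. Of the 40 genes, 11 overlap another gene on the same strand and 16 one on the other, so some counts may be shared. Python 3.11.15, numpy 2.4.6, pandas 2.3.3, scipy 1.17.1 and matplotlib 3.10.9 were used.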

Additional observations from a re-analysis of the deposited data

How the results depend on the processing

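No paired analysis was possible because each group has 1 library. The median log2 ratio of the 40 genes kept its sign under each alternative; with a pseudocount of 10 CPM it was -1.10 between WT IL-33 and WT vehicle and 0.70 between cKO IL-33 and WT IL-33. With at least 500 UMIs required, fewer genes were compared, and the counts at least 2-fold apart in the leading direction were 21 (WT IL-33 lower than WT vehicle), 19 (cKO IL-33 higher than WT IL-33) and 3 (cKO IL-33 lower than WT vehicle). Between cKO IL-33 and WT vehicle 32 genes were at least 1.5-fold lower and 0 at least 3-fold lower. The share of cells with at least 5 of the genes was 9.30% in WT vehicle, 4.88% in cKO IL-33 and 2.09% in WT IL-33, and after thinning 6.38%, 3.15% and 0.703%. After thinning the share with 10 or more was 4.86% in WT vehicle. Without Hmgb2, Stmn1, Tubb4b, Cks2, Smc4 and Ckap2, cluster 4 held 90.9%, 86.0% and 46.2% of the genes' UMIs in WT vehicle, cKO IL-33 and WT IL-33. With all 40 genes kept, it held 24.2% in WT IL-33 without cells holding both Xist and Y-linked UMIs (main value 19.8%). Except where the alternative itself changes what is counted, the cause was not tested.

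Single genes moved beyond their counting interval in 112 of 280 alternatives (WT IL-33 against WT vehicle), 102 of 280 (cKO IL-33 against WT IL-33) and 34 of 240 (cKO IL-33 against WT vehicle), and no value past 2-fold changed sign. Scaling by cells in place of UMIs moved the median of all genes from 0.02 to -0.26 (WT IL-33 against WT vehicle) and from 0.05 to 0.28 (cKO IL-33 against WT IL-33), with 37 genes at least 2-fold lower and 36 higher. Depth limits genes with under 10 UMIs in WT IL-33 (Kif11 and Bub1 had 7) and all levels within its 15 cluster 4 cells. Outside cluster 4, alternatives chosen after seeing the data gave WT IL-33 to WT vehicle ratios of 6.50 to 8.82 for Kif2c, 1.93 to 2.49 for Cks2 and 1.48 to 1.86 for Tubb4b.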
